A study of Mus musculus with 6 samples.

Results

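Primary granules, also called azurophil granules, are the first storage granules that a developing neutrophil makes, and they carry myeloperoxidase and a family of serine proteases. Their genes are transcribed strongly in granulocyte-monocyte progenitors and promyelocytes and are shut off before the later granules form, so their transcripts mark an early step of the granulocyte line. In mice, granulocyte-monocyte progenitors lie within the Sca-1 negative, Kit positive gate. A set of 10 primary granule and granulocyte progenitor genes is described here: Mpo, Elane, Prtn3, Ctsg, Prss57, Ms4a3, Fcnb, Nkg7, Anxa3 and Clec12a. The genes were chosen by name, with earlier results of these data known. Each was represented by the probe set annotated to that symbol alone. Of the 10 genes, 8 had such a probe set, 1 each, among 18193 genes on the array. Prss57, a granule serine protease, and Clec12a, an inhibitory lectin receptor of myeloid cells, were not analysed here.

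The study compared 2 blood-forming populations of wild-type C57BL/6 mice, sorted by flow cytometry, with 3 arrays each. LSK cells were low in lineage markers and positive for Sca-1 and Kit, a gate that holds stem cells and multipotent progenitors. LK cells were low in lineage markers, positive for Kit and negative for Sca-1, a gate that holds committed progenitors of several lines at once. The tissue, age and sex of the mice are not given in the labels used here. RNA was amplified linearly and hybridised to an Affymetrix mouse array, and values are log2 of the deposited intensities. A difference is LSK minus LK on the log2 scale. In such sorted bulk samples, fewer cells of a type and less RNA per cell cannot be told apart.

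The arrays matched their labels by marker genes: 6 of 7 measured stem cell markers were higher in LSK, among them Mecom and Hlf. Of 7 erythroid markers, 4 were lower in LSK, Klf1, Gata1, Car1 and Ermap. Array log2 intensities spanned 1.84 to 14.20, and there were 3 arrays in each population, a number that limits the precision. The samples are numbered 1 to 3 in both populations. The array carries control probe sets at both ends of the Actb and Gapdh transcripts, and the log2 intensity at the 3' end minus that at the 5' end, averaged over both genes, measures 3' bias. It was 2.32, 2.32 and 3.30 on the LSK arrays numbered 1, 2 and 3, against 3.26, 3.94 and 3.40 on the LK arrays with these numbers.

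Stretches before the transcript starts are shown for the 6 members whose promoter holds GGAAGT, so that their layout can be compared. Whether the motifs bear on the array values was not tested. The stretches come from RefSeq on GRCm38.p6. Each holds 90 bases of the strand of the gene and ends before the annotated start. Capitals mark GGAAGT, the core bound by ETS factors such as PU.1, together with AACGG, a form of the Myb site, and TATAAG, a form of the TATA box.
Elane, chr10:79886209-79886298, plus strand: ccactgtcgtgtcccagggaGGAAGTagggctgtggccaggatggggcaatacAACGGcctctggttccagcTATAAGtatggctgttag
Prtn3, chr10:79879554-79879643, plus strand: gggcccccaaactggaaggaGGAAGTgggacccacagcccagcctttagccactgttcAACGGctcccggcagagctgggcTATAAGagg
Mpo, chr11:87793542-87793631, plus strand: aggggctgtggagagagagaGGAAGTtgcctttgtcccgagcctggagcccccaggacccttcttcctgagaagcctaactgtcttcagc
Ctsg, chr14:56102710-56102799, minus strand: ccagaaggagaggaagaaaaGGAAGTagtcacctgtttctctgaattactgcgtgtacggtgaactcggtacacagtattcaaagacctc
Ms4a3, chr19:11640852-11640941, minus strand: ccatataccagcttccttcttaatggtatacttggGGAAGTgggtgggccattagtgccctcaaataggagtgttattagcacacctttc
Fcnb, chr2:28084911-28085000, minus strand: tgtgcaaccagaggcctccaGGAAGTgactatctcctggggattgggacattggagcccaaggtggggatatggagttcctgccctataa

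Promoter sequence was at hand for 8 of the 10 members, all except Prss57 and Anxa3. Over the 250 bases before the start, GGAAGT on either strand was found in 6 of these 8 (Elane, Prtn3, Mpo, Ctsg, Ms4a3 and Fcnb) and in 19.7% of 32851 mouse promoters of the same length. The longer PU.1 form GAGGAAGT, which contains the ETS core, was found in 3 of the 8 (Elane, Prtn3 and Mpo) and in 2.44% of all promoters. Elane and Prtn3 shared a layout: the ETS core began at position -83 in Elane and -93 in Prtn3, AACGG at -50 in Elane and -55 in Prtn3, and TATAAG at -31 in Elane and -32 in Prtn3. Fcnb also had TATAAG, at -37, which runs past the end of the stretch printed. AACGG occurred in 14.5% of all promoters and TATAAG in 6.65%. Prtn3 and Elane are direct neighbours on chromosome 10 and are followed by Cfd, which encodes complement factor D. Prss57 lies on the same chromosome before Palm, Misp, Ptbp1, Plppr3 and Prtn3. The Runx hexamer TGTGGT was found in Ctsg, Nkg7 and Clec12a and in 14.0% of all promoters. The C/EBP pattern TTNNGCAA was found in Fcnb and Clec12a and in 9.56% of all promoters. These are matches of letters in a fixed window, chosen with the sequences in view.

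**Figure D1:**
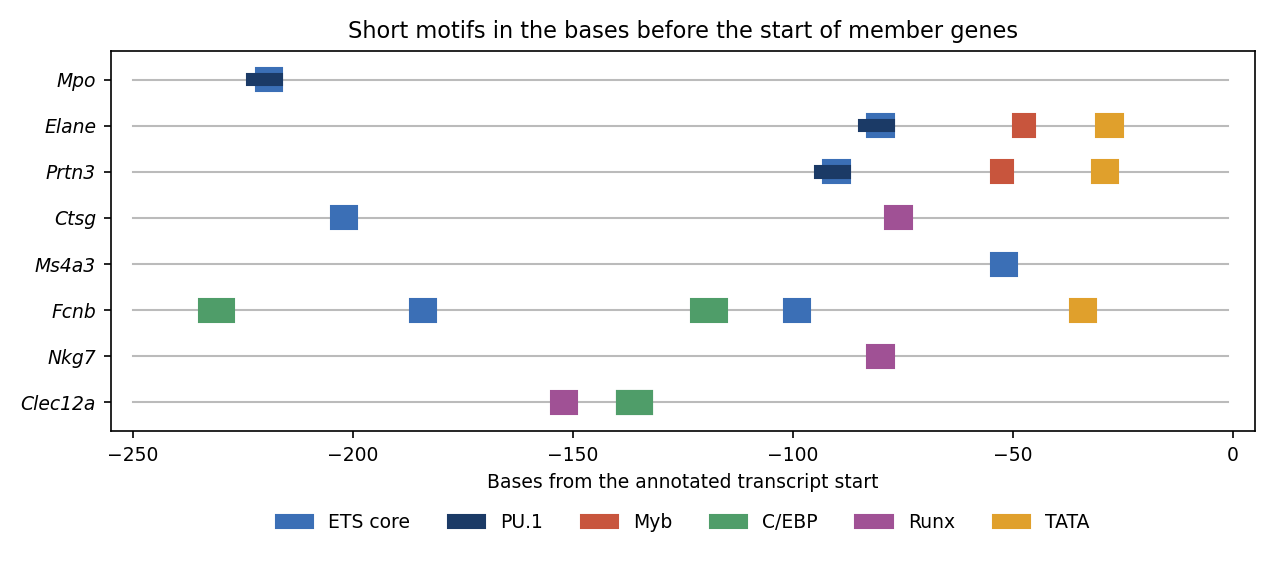
Positions of 6 short motifs, searched on both strands, in the 250 bases before the annotated start of 8 member genes. The horizontal axis is the distance from the start in bases, each grey line is 1 gene, and each coloured block is 1 match. The narrow PU.1 block in Mpo, Elane and Prtn3 overlaps the ETS core, and Elane and Prtn3 carry 4 motif names in the same order.

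All 8 measured members had a lower mean in LSK than in LK cells, and 6 of the 8 were past the threshold (limma, Benjamini-Hochberg adjusted p under 0.05 over all genes). They were Mpo, Elane, Prtn3, Ctsg, Ms4a3 and Anxa3, with folds between 2.24 for Mpo and 11.2 for Anxa3. Over the whole array, 2.89% of genes were lower in LSK by the same rule, 3.84% higher and 6.73% either. The remaining members, Fcnb and Nkg7, had overlapping populations. The median log2 difference was -1.94 over the 8 members and -0.02 over all genes tested. In a fit that treats the number as a block (the block fit) the same 6 members were past the threshold, where 7.36% of all genes were lower in LSK and 14.4% changed in either direction. The calls rest on few arrays: leaving out the LSK array numbered 1 or 2, or the LK array numbered 2 or 3, left 0 of the 8 members past the threshold in limma, with 7, 6, 6 and 6 members lower at an unadjusted p under 0.05. Without the LSK array numbered 3 or the LK array numbered 1, 5 were left. The difference lay below 0 for 8 of 8 members in each of these fits.

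Mpo encodes myeloperoxidase, the haem enzyme of the granule that makes hypochlorous acid. Its log2 intensities were 11.32, 11.55 and 12.02 in LSK cells numbered 1, 2 and 3, against 12.51, 12.97 and 12.89 in LK cells. The LSK arrays all lay below the LK arrays, and the transcript lay in the upper part of the array range in both populations. Mpo was 2.24-fold lower in LSK (log2 difference -1.16, SE 0.22, limma adjusted p = 0.0323). This was the smallest difference among the 6 members past the threshold. On the deposited linear scale Mpo reached 4144 in LSK and 8002 in LK.

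Elane encodes neutrophil elastase, whose mutations cause inherited neutropenia in humans. Log2 intensities of Elane were 7.70, 8.05 and 9.50 in LSK cells, against 10.27, 11.36 and 12.03 in LK cells. On the deposited linear scale these are 207, 265 and 723 in LSK, against 1238, 2632 and 4182 in LK. The populations did not overlap, but the array numbered 3 in LSK came close to the array numbered 1 in LK. Elane was 7.00-fold lower in LSK (log2 difference -2.81, SE 0.59, limma adjusted p = 0.0410). The call was lost when every probe set was tested on its own. Elane has 1 probe set, so its difference was unchanged there, and the limma adjusted p over 34945 probe sets was 0.0515.

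Prtn3 encodes proteinase 3, a protease close to elastase and a target of autoantibodies in human vasculitis. Its log2 intensities were 9.11, 9.05 and 9.83 in LSK cells, against 10.42, 11.27 and 12.01 in LK cells. Prtn3 was 3.75-fold lower in LSK (log2 difference -1.90, SE 0.42, limma adjusted p = 0.0468), the adjusted p nearest to the threshold among the 6. It was also lost without LSK replicate 3, when every probe set was tested on its own, and when genes were represented by their most variable probe set. Prtn3 has 1 probe set, so in both probe set settings its values were unchanged and only the fit to the others differed. The LK arrays were spread over a wider range than the LSK arrays, 1.59 in LK against 0.79 in LSK.

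Ctsg encodes cathepsin G, the granule protease with chymotrypsin-like cleavage. It had log2 intensities of 9.73, 10.44 and 11.17 in LSK cells, against 11.88, 12.49 and 12.86 in LK cells. Each LSK array lay below each LK array. The gene was 3.91-fold lower in LSK (log2 difference -1.97, SE 0.41, limma adjusted p = 0.0388), and was also lost without LK replicate 1.

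Ms4a3 encodes a membrane-spanning protein whose gene has been used in mice to trace the progeny of granulocyte-monocyte progenitors. Its log2 intensities were 8.67, 9.22 and 10.38 in LSK cells, against 11.38, 12.15 and 12.42 in LK cells. The populations were separate, and Ms4a3 was 5.89-fold lower in LSK (log2 difference -2.56, SE 0.47). Its limma adjusted p of 0.0291 was the lowest of the 8 members.

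Anxa3 encodes a calcium-dependent phospholipid-binding protein found on granules of human neutrophils. Log2 intensities were 5.01, 4.77 and 7.01 in LSK cells, against 8.08, 9.46 and 9.71 in LK cells. Anxa3 had the widest gap between the population means, 11.2-fold lower in LSK (log2 difference -3.49, SE 0.68, limma adjusted p = 0.0343). In LSK the array numbered 3 stood apart, above the arrays numbered 1 and 2, and the LSK range was 2.25.

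Fcnb encodes ficolin B, a lectin that recognises sugars on microbes and starts complement activation. Its log2 intensities were 6.18, 3.64 and 7.51 in LSK cells, against 5.87, 7.38 and 9.60 in LK cells. The populations overlapped, with the LK array numbered 1 below 2 of the 3 LSK arrays. The difference of -1.84 had an SE of 1.22 and a 95% interval from -4.74 to 1.06 (limma adjusted p = 0.449). Its spread within LSK and within LK was the widest of the members, with ranges of 3.86 and 3.73.

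Nkg7 encodes a membrane protein of the cytolytic granules of natural killer and T cells. It had log2 intensities of 9.95, 9.21 and 9.60 in LSK cells, against 9.88, 10.42 and 11.29 in LK cells. The LK array numbered 1 lay below the LSK array numbered 1, so the populations overlapped. The difference was -0.95 (SE 0.37, 95% interval from -1.84 to -0.05), with a limma adjusted p of 0.200. Defining markers of natural killer and T cells were near the bottom of the range: 7 of 7 measured, Ncr1, Klrk1, Prf1, Gzma, Ccl5, Cd3e and Cd3g, averaged less than 4 on the log2 scale in LSK and in LK. Their summed linear intensity was 51.2 to 52.1 in LSK and 46.9 to 50.3 in LK, and the marker Klrb1c was not analysed here.

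**Figure D2:**
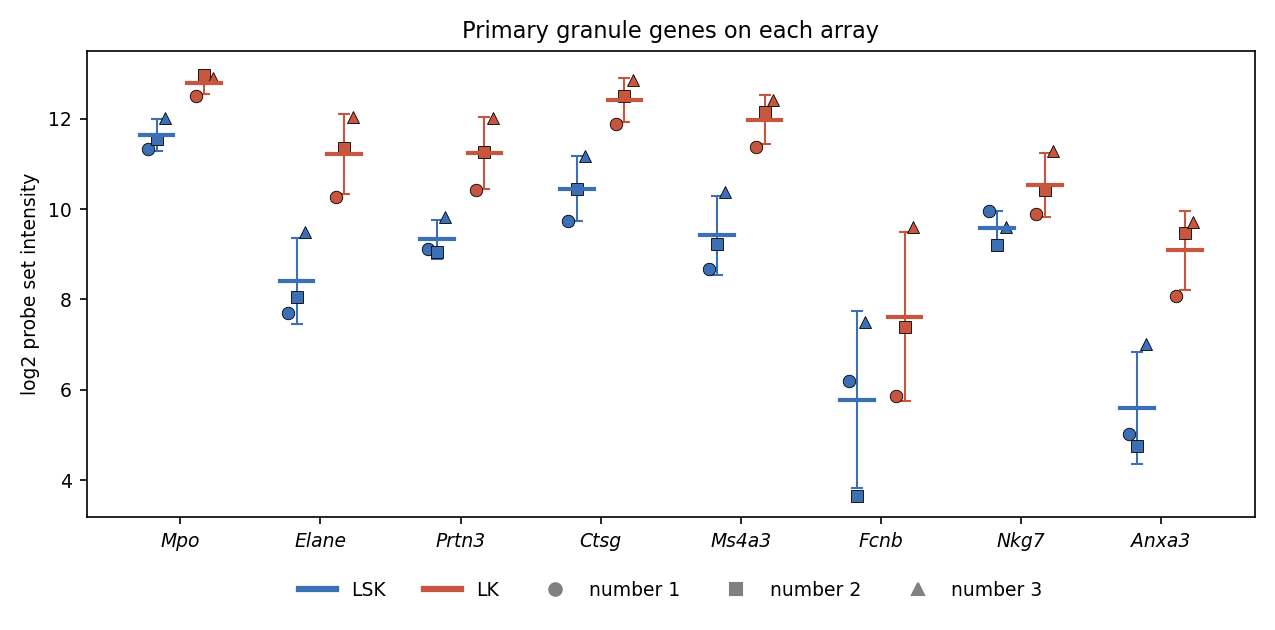
Log2 probe set intensity of the 8 measured members on each of the 6 arrays, LSK in blue and LK in red, with the marker shape giving the replicate number. Bars are means over 3 arrays and whiskers are SD. The LSK points lie below the LK points for 6 genes, and Fcnb and Nkg7 overlap.

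The populations did not overlap for 6 of 8 members, with LSK lower, against 14.8% of all genes. The lack of overlap forces LSK to be lower in 3 of 3 pairs of the same number for these 6 members as well. The pairs therefore add no separate result for them. Over all genes, 27.1% were lower in LSK in 3 of 3 pairs. For Fcnb and Nkg7 the pair numbered 1 ran the other way, by 0.31 and 0.07 log2 units, while the pairs numbered 2 and 3 had LSK lower. The mean over the 8 members was 8.46, 8.24 and 9.63 on the LSK arrays numbered 1, 2 and 3, against 10.04, 10.94 and 11.60 on the LK arrays. Averaged over the arrays, this mean was 8.78 ± 0.75 in LSK and 10.86 ± 0.79 in LK (SD, n = 3 each), a difference of -2.08. By number, the difference was -1.58 for the pair numbered 1, -2.70 for the pair numbered 2 and -1.97 for the pair numbered 3.

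The members also varied together within each population. In LSK the array numbered 3 was the highest of the 3 for 7 of 8 members, all except Nkg7, where 33.0% of all genes had their highest value on that array. In LK the array numbered 3 was the highest for 7 of 8 members, all except Mpo, against 26.0% of all genes. The LK array numbered 1 was the lowest of its population for 8 of 8 members, against 31.4% of all genes. In LSK the low end was divided: the array numbered 1 was the lowest for 4 of 8 members, against 27.2% of all genes, and the array numbered 2 for the other 4. A high level on the array numbered 3 was not particular to the members. The mean log2 of 13 secondary granule and mature neutrophil genes was 7.45, 6.86 and 7.95 on the LSK arrays numbered 1, 2 and 3. On the LK arrays with these numbers it was 6.72, 6.62 and 7.61. The range over the 3 arrays had a median of 1.58 among members in LSK and 1.50 in LK, and a median of 0.39 among all genes in each population, of which 7508 had a mean log2 of at least 4.

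The measure of 3' bias moved with part of this pattern. In LSK the array numbered 3 had both the highest member mean and the highest 3' to 5' difference, and LK arrays had a higher 3' to 5' difference than the LSK arrays numbered 1 and 2. With this difference as a covariate, 0 of 8 members were past the threshold in limma and 3 were lower at an unadjusted p under 0.05. The member differences were then -0.04 for Fcnb to -1.77 for Anxa3, with a median of -1.21, below 0 for 8 of 8. Over all genes this fit called 25 higher and 0 lower in LSK. Within LK the array with the highest 3' to 5' difference was numbered 2, while the array with the highest member mean was numbered 3. Since the measure was mostly higher in LK, 3' bias and population cannot be fully told apart on these arrays.

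Secondary granule genes and genes of mature neutrophils differed from the members in the comparison of LSK with LK. Like the member mean, their mean was highest on the array numbered 3 in each population. Of 13 measured, 0 were past the threshold in limma, 2 at an unadjusted p under 0.05, and their median log2 difference was 0.48. The lowest p belonged to Mmp9, the gelatinase of tertiary granules, with 4.57 ± 0.76 in LSK and 3.47 ± 0.18 in LK (SD, n = 3 each, limma adjusted p = 0.138). In the block fit, 5 were higher in LSK and 0 lower, where 7.02% of all genes were higher: Ltf (lactoferrin), Camp (the cathelicidin peptide), Ngp (neutrophilic granule protein), Lcn2 (lipocalin 2) and Mmp9. Camp had log2 intensities of 9.87, 9.07 and 10.02 in LSK cells, against 8.18, 7.71 and 9.56 in LK cells, with a block adjusted p of 0.0378 in limma. S100a8, a calcium-binding protein abundant in neutrophils, was high on every array, at 12.73, 12.66 and 13.08 in LSK and 12.25, 12.70 and 13.19 in LK. Between arrays of the same number, 8 of the 13 were higher in LSK in 3 of 3 pairs, against 22.8% of all genes, and 1, Cybb, was lower in 3 of 3. Of the 13, 3 averaged less than 4 on the log2 scale in LSK and in LK: Mmp8, Olfm4 and Itgb2l. Mmp8 and Itgb2l were among the 8. The summed linear intensity of the 13 genes was 14015 to 22768 in LSK and 10559 to 21372 in LK. Whether RNA of mature neutrophils contributed to the member values was not tested.

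**Figure D3:**
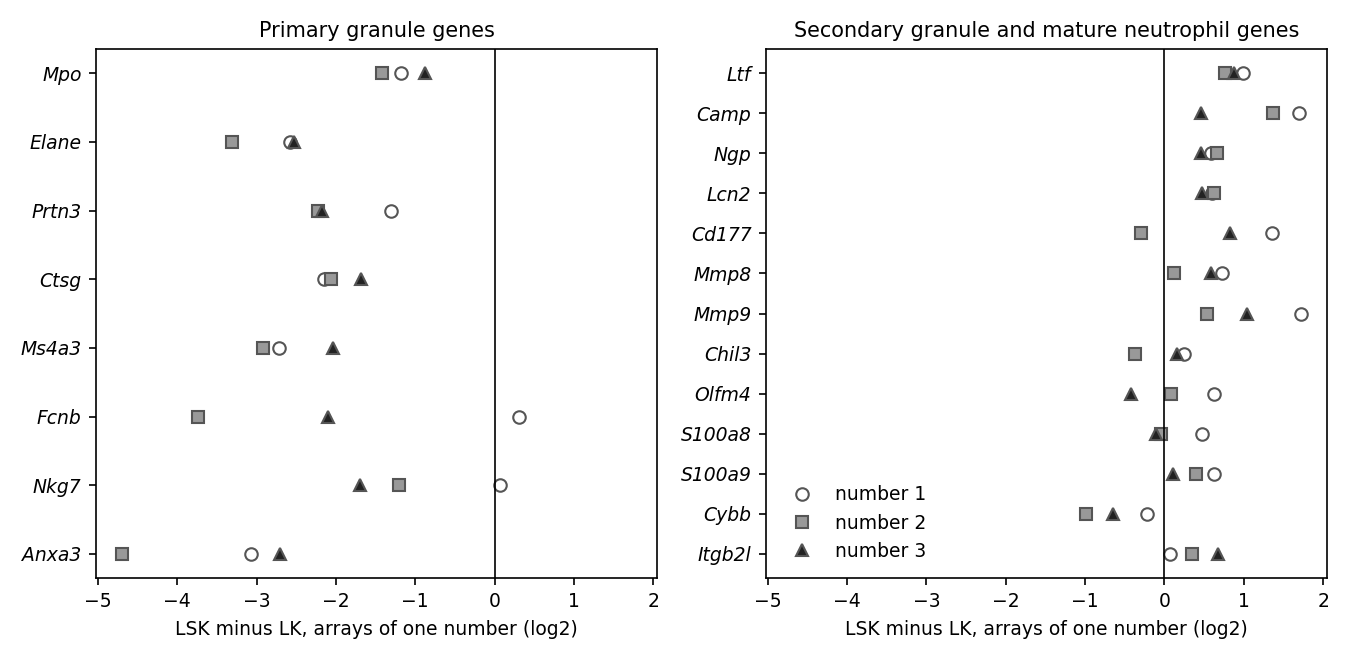
Difference between the LSK and the LK array of the same number, in log2 units, with 1 marker for each number. The 8 measured members are on the left and 13 secondary granule and mature neutrophil genes on the right. For 6 of the 8 members all 3 markers lie below 0, against 27.1% of all genes. For 8 of the 13 later genes all 3 lie above 0, against 22.8% of all genes.

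Among 8 other measured genes for contents and membrane of the primary granule, 1 was lower in LSK, 0 higher and 7 not past the threshold, with a median of -0.25. The one past it was Gusb, the lysosomal beta-glucuronidase, with 7.28 ± 0.36 in LSK and 8.31 ± 0.23 in LK (SD, n = 3 each), a 2.05-fold difference with a limma adjusted p of 0.0432. Its other probe set lay near the bottom of the range, the call was lost when probe sets were averaged, and it was lost without each of the 6 arrays in turn. Lyz2, the lysozyme of myeloid cells, ran toward LSK, with log2 intensities of 9.39, 10.07 and 9.92 in LSK cells, against 8.24, 8.75 and 8.99 in LK cells. The populations did not overlap, as for 13.2% of all genes with LSK higher. In limma the adjusted p was 0.0510 without the block and 0.0103 with it. Lyz1, a near-identical copy, had a difference of 0.49 (adjusted p = 0.273) on a probe set marked by its name as able to bind other transcripts, so the lysozymes cannot be fully separated. With the block, Lyz2 was the 1 gene higher, and Gusb and Ctsb (cathepsin B) were the 2 lower.

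Granule proteases are made as inactive precursors, activated by the peptidase Ctsc, bound to the proteoglycan Srgn and held in check by serpins. Of 17 genes for processing, folding, sorting and inhibition, 2 were lower in LSK, 0 higher and 15 not past the threshold, with a median of -0.41. Cst7, the cystatin that inhibits Ctsc, had log2 intensities of 6.38, 6.30 and 6.87 in LSK cells, against 7.64, 8.20 and 8.83 in LK cells. Its arrays did not overlap, and it was 3.26-fold lower in LSK (log2 difference -1.70, SE 0.32, limma adjusted p = 0.0299). Ap3d1, a subunit of the AP-3 adaptor that sorts cargo to granules, was 2.09-fold lower (limma adjusted p = 0.0455), with its other probe set near the bottom of the range. With averaged probe sets its difference was -0.52 and the limma adjusted p 0.0891. The call was also lost with the most variable probe set (0.0527) and with every probe set on its own (0.0555). With the block, 4 were lower: Cst7, Ap3d1, the AP-3 subunit gene Ap3b1 and Slpi, the secretory leukocyte protease inhibitor.

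Ctsc itself had log2 intensities of 6.65, 6.64 and 6.50 in LSK cells, against 5.90, 6.39 and 6.59 in LK cells, with overlap and a limma adjusted p of 0.442. Srgn was close in both populations, with 11.86 ± 0.10 in LSK and 11.99 ± 0.35 in LK (SD, n = 3 each, limma adjusted p = 0.767). The 95% interval of the Srgn difference ran from -0.60 to 0.34, against a difference of -1.16 for Mpo and -2.81 for Elane. Serpinb1a, an inhibitor of elastase and cathepsin G, had a difference of -1.06 with an SE of 0.49 (limma adjusted p = 0.270). The Cst7 call was lost on leaving out the LSK array numbered 1 or 2 or the LK array numbered 2 or 3, with a limma adjusted p of up to 0.106. The Ap3d1 call held only without the LSK array numbered 3, and reached 0.141 elsewhere.

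The list of transcription factors known to act on primary granule genes held 9 measured genes, of which 1 was lower in LSK, 0 higher and 8 not past the threshold. Cebpd, a C/EBP family member, lay low on the array, with 3.41 ± 0.49 in LSK and 4.99 ± 0.46 in LK (SD, n = 3 each). Its 2.98-fold difference had a limma adjusted p of 0.0368, a call that was lost when probe sets were averaged. Cebpa, the factor required for granulocyte-monocyte progenitors to form, had log2 intensities of 7.84, 7.86 and 7.71 in LSK cells, against 8.22, 8.45 and 8.80 in LK cells. Its arrays did not overlap, and its difference of -0.69 did not pass the threshold (limma adjusted p = 0.0679). Spi1, which encodes PU.1, lay low on the array, with a difference of -0.66 (limma adjusted p = 0.415, 0.0392 with the block). Gfi1, a repressor needed for neutrophil formation, had 6.30, 6.72 and 5.88 in LSK cells, against 5.45, 7.56 and 7.76 in LK cells. The LK array numbered 1 had the lowest Gfi1 value of the 6 arrays. Myb, needed by early progenitors, differed by -0.24 (adjusted p = 0.413). Runx1, the partner of Cbfb, was higher in each LSK array, with a difference of 1.04 (limma adjusted p = 0.0535, 0.00953 with the block). With the block, 3 factors were lower (Cebpd, Spi1 and Irf8) and 2 higher (Runx1 and Cebpb). The same 4 arrays that decided Cst7 decided Cebpd, with a limma adjusted p of up to 0.126 when 1 of them was left out.

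Among 7 surface protein genes of granulocyte-monocyte progenitors, the receptors and Cd34, 1 was lower in LSK, 1 higher and 5 not past the threshold. Fcgr3, an IgG Fc receptor used to sort these progenitors, had log2 intensities of 4.50, 5.15 and 5.69 in LSK cells, against 6.85, 7.92 and 8.48 in LK cells. It was 6.23-fold lower in LSK (log2 difference -2.64, SE 0.47, limma adjusted p = 0.0257), and on both sides the array numbered 3 was the highest and the array numbered 1 the lowest. Cd34, a surface sialomucin of early progenitors, was 2.57-fold higher in LSK (limma adjusted p = 0.0111). Csf3r, the G-CSF receptor, lay low on the array with a difference of -0.25 (adjusted p = 0.692). Its sign turned without LK replicate 3 and with the 3' to 5' covariate. Fcgr3 too was lost on leaving out any of those 4 arrays, with a limma adjusted p of up to 0.0884. Cd34 was lost without the LSK array numbered 1 or the LK array numbered 3, with one of up to 0.0586, and with the 3' to 5' covariate, with one of 0.265. Gusb, Cst7, Ap3d1, Cebpd and Fcgr3 were not past the threshold with this covariate either, with limma adjusted p between 0.443 for Fcgr3 and 0.609 for Ap3d1. With the block, the receptor of macrophage colony-stimulating factor, Csf1r, was also lower in LSK.

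**Figure D4:**
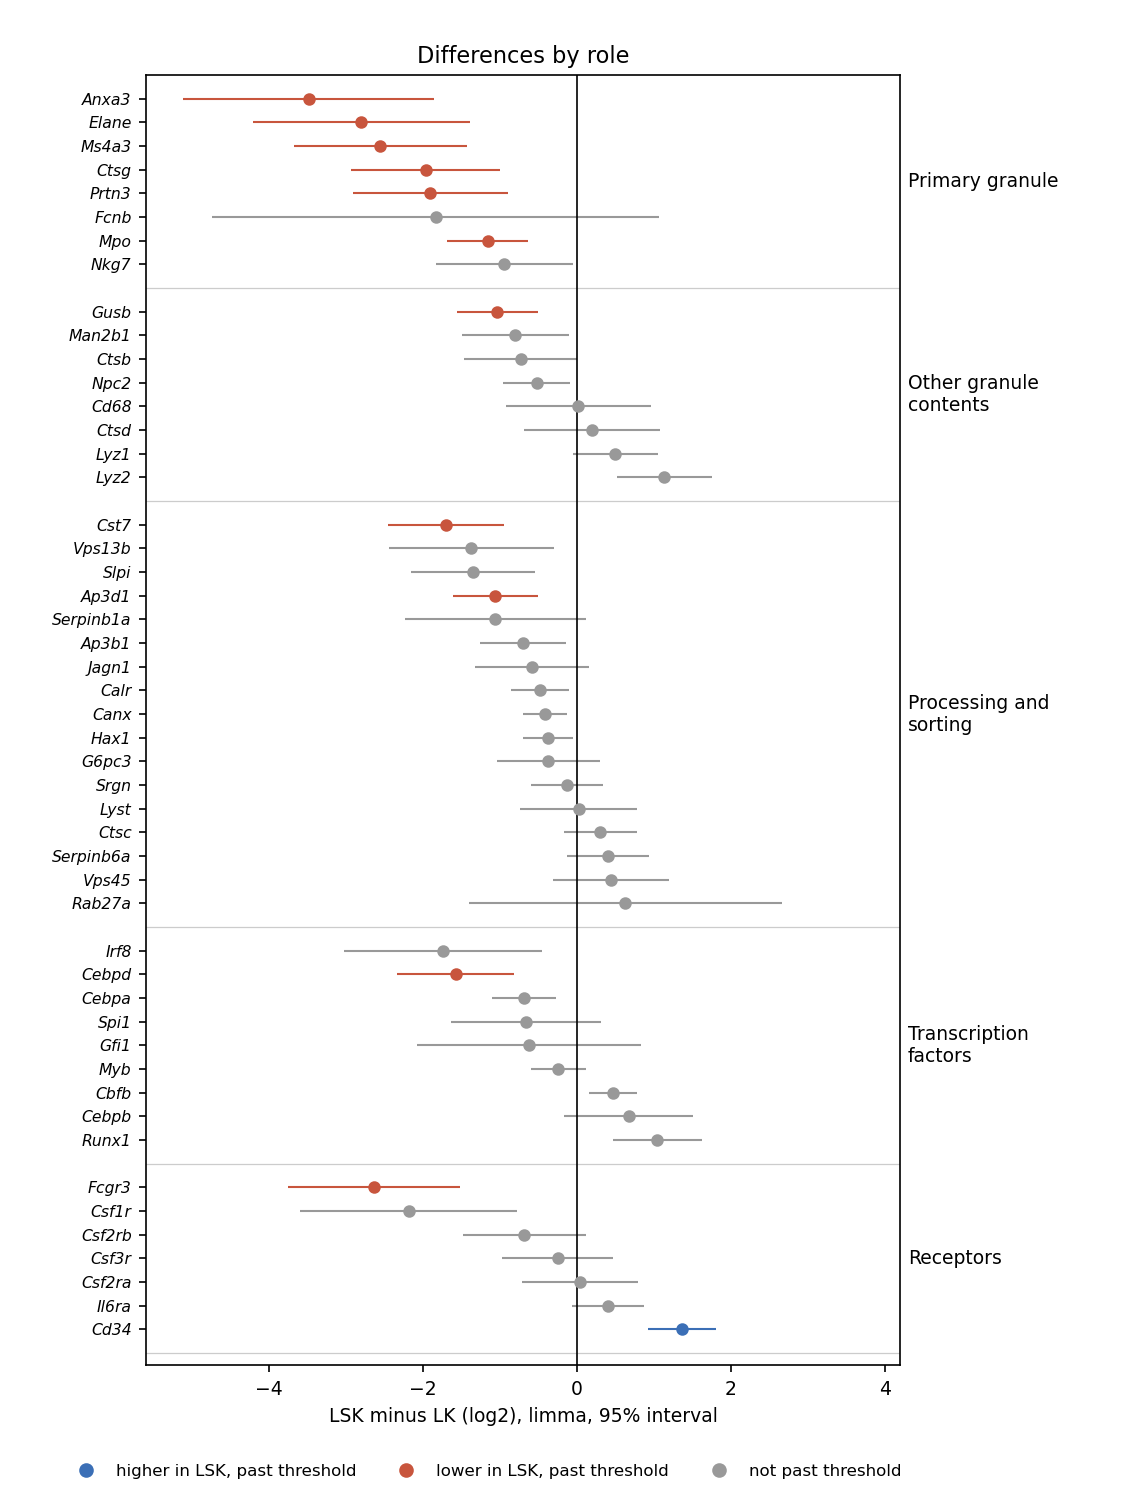
LSK minus LK on the log2 scale for the members and 4 related gene lists, with the 95% interval of the limma fit. Red marks genes lower and blue genes higher in LSK past the threshold, and grey marks the others. Of the members 6 of 8 are red, against 1 of 8, 2 of 17, 1 of 9 and 1 of 7 in the other lists.

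Granule serine protease genes of other blood cells are relatives of Elane, Prtn3 and Ctsg. Of 12 measured, 0 were past the threshold in limma and 0 at an unadjusted p under 0.05. In each population 11 of the 12 averaged less than 4 on the log2 scale, including the granzymes Gzma and Gzmb and the mast cell proteases Cma1 and Tpsb2. Mcpt4, a mast cell chymase, had the lowest p (2.45 in LSK and 2.73 in LK, limma adjusted p = 0.224). The exception was Mcpt8, a basophil protease, with log2 intensities of 4.58, 4.71 and 6.31 in LSK cells, against 5.86, 5.56 and 6.93 in LK cells. In limma its adjusted p was 0.398 without the block and 0.0264 with it.

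Markers of other lines in the gates were summed on the linear scale beside the members, whose own sum was 5672 to 10508 in LSK and 16160 to 32940 in LK. Monocyte markers, 6 measured, summed to 603 to 2631 in LSK and 2844 to 5953 in LK. None of the 6 was past the threshold in limma, with 4 at an unadjusted p under 0.05, and with the block 4 were lower in LSK (Csf1r, Ly86, Irf8 and F13a1). Erythroid markers, 7 measured, summed to 72.9 to 142 in LSK and 2426 to 6025 in LK, with the globin gene Hba-a1 and Slc4a1 near the bottom of the range. Mast cell and basophil markers, 6 measured, summed to 1093 to 1328 in LSK and 1064 to 2030 in LK, with Ms4a2 and Hdc past the threshold toward LK. Most of the LSK sum came from Gata2, a factor also used by stem cells, with log2 intensities between 9.94 and 10.27 in LSK, against 9.09 to 10.21 in LK. The others measured lay lower in LSK, with log2 differences of -3.56 for Hdc, -2.98 for Cpa3, -1.83 for Ms4a2 and -0.91 for Mcpt8, except Fcer1a near the bottom of the range. Eosinophil markers, 4 measured, summed to 35.3 to 352 in LSK and 30.0 to 295 in LK. Megakaryocyte markers, 4 measured, summed to 144 to 177 in LSK and 176 to 406 in LK. None was past the threshold in limma. With the block, Pf4 was lower in LSK (log2 difference -1.18) and Gp9 higher (0.98). B-cell markers, 4 measured, summed to 33.8 to 42.8 in LSK and 37.0 to 47.7 in LK. Lymphoid-primed progenitor markers, 6 measured, summed to 3422 to 6570 in LSK and 341 to 496 in LK. Most of this LSK sum came from Dntt, with log2 intensities of 11.60 to 11.81. On the LSK array numbered 3 much of it also came from Ighm, at 11.47 (limma adjusted p = 0.749). Flt3 and Dntt were past the threshold toward LSK, while Il7r, Rag1 and Rag2 lay near the bottom of the range. Stem cell markers, 7 measured, summed to 3606 to 4656 in LSK and 288 to 439 in LK. The part of the makeup of each gate in the member differences was not tested.

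Likeness to the mean profile of the members over the 6 arrays was ranked by Pearson's r among 3489 other genes with a mean log2 of at least 5 and a range of at least 1. The 6 points share 2 populations and 3 numbers, so many genes reach a high r, and the ranking is a description. The 8 most alike genes had r between 0.991 and 0.999. They were Sgms2 (sphingomyelin synthase 2), Dtx4, Pgd (the pentose phosphate enzyme phosphogluconate dehydrogenase), Tmem50b, Agps (an enzyme of ether lipid synthesis), Fcgr2b (the inhibitory IgG Fc receptor), Mapkapk3 (a kinase downstream of p38) and Pfkp (a phosphofructokinase). Pgd, for example, had log2 intensities of 9.38, 9.29 and 10.13 in LSK cells, against 10.53, 11.03 and 11.31 in LK cells. For single members, with the other members among 3496 candidates, the most alike gene was Hk3, a hexokinase, for Mpo, Pgd for Elane, Cst7 for Prtn3, Itpripl2 for Fcnb, Irak3 for Nkg7 and Alas1, an enzyme of haem synthesis, for Anxa3. Ctsg and Ms4a3 were each the most alike gene of the other, with r = 0.996.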

How the data were processed

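The authors' deposited values are linear probe set intensities made by RMA (affy, R 2.11.0, per the submitters' processing notes). Scan files were not used here. Of 45101 probe sets, 64 were controls, 34945 carried 1 symbol, 932 several and 9160 were not listed. For 34741 of the 34945, the gene identifier was found in RefSeq and the RefSeq symbol was used. For each of 18193 genes the probe set brightest on average (log2) was kept.

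The populations were compared in limma 3.58.1 under R 4.3.3, with population as the single term, two-sided p and Benjamini-Hochberg adjustment over all genes, at a threshold of 0.05. The code was tested on simulated data. The labels name no separate animals, so the p-values may measure technical spread only. Same-numbered arrays deviated together (r across genes 0.42, 0.43 and 0.27, against -0.41 to 0.04 between other numbers). The numbers were therefore treated as pairs in the block fit, a pairing taken from the data, on which the block p-values depend. Deviations were taken from the population mean of each gene, so a high r for same numbers forces a lower r between other numbers.

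Members and lists were chosen with earlier results of these data known. Named are all members, list genes past the threshold, the lowest p where none passed, the factors, Ctsc, Cst7, Srgn, Serpinb1a, Lyz2, Csf3r and the most alike genes. Other list genes were named after their values were seen. Alternatives were a replicate block, normalisation, filters, probe set choice, variance models, 3' bias and left-out arrays. Some genes of the lists were not analysed here and are not reported.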

Additional observations from a re-analysis of the deposited data

How the results depend on the processing

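The 6 members lower in LSK stayed 6 with the replicate number as a block, after quantile normalisation or after cyclic loess, with only genes of a mean log2 of at least 4, with averaged probe sets, trend and robust variances or array weights. They were 5 with the most variable probe set and 4 with every probe set tested on its own, with the member values unchanged. They were 0 with the measure of 3' bias as a covariate and 0 to 5 when arrays were left out, 0 also without both arrays numbered 2. The left-out fits rest on fewer arrays, and the covariate and block fits on fewer degrees of freedom. Why the counts moved was not tested. The median difference of the members lay between -2.52 and -1.63 when arrays were left out. Over all genes, 699 were higher and 526 lower in LSK. The counts were 1278 and 1339 with the block, 1305 and 1301 with array weights, 25 and 0 with the covariate, and 821 lower after renewed quantile normalisation. When arrays were left out, 230 to 584 were higher and 76 to 685 lower, with 371 higher and 166 lower without both arrays numbered 2. With the block, the granule contents list had 1 gene higher and 2 lower, the processing list 4 lower, the factors 2 higher and 3 lower, the receptors 2 lower, the later granule genes 5 higher and the other proteases 1 lower. When arrays were left out, the numbers lower were 0 to 0 for granule contents and 0 to 3 for processing. They were 0 to 2 for factors and 0 to 2 for receptors. The numbers higher were 0 to 1 for factors and for later granule genes, and 0 to 1 for the receptor list, from Cd34. The difference turned sign for Csf3r (0.0019 without LK replicate 3, 0.054 with the covariate) and Srgn (0.023 and 0.079), and ran from -0.60 to 0.0019 and from -0.32 to 0.023 when single arrays were left out. Neither was past the threshold in any of these fits. The cause was not tested. The number of arrays, 3 in each population, limits the precision.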
